A study of Mus musculus with 9 samples.

Results

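Nitric oxide synthase and the enzymes that make and use arginine, ornithine and polyamines were followed as a set of 10 named genes: Nos2, Ass1, Asl, Arg2, Odc1, Amd1, Srm, Sms, Sat1 and Azin1. They were picked by gene symbol from a table of 16500 genes, and 9 of the 10 had values; Arg2 was not analysed here. The list was drawn up with earlier results of these data in view, in which the rise of Nos2 over Control with both NFAT2 vectors was among the largest. All differences between groups for these 9 genes are therefore given as a description, with an estimate and its standard error and without a p-value. Other genes of the same pathways were tested. Their lists follow textbook membership, but were also drawn up with earlier results of these data known.

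The cells were primary CD4+ T cells of C57BL/6 mice, kept in RPMI-1640 with serum and transduced with 1 of 3 retroviral vectors. The groups were Control (the CTRL vector), NFAT2_CA and NFAT2_CARIT, with 3 libraries each and 9 in all. NFAT2 is the calcium-responsive transcription factor encoded by Nfatc1. As background, CA forms of NFAT are constitutively active, and the RIT changes are known to impair cooperation on DNA with AP-1, the dimer of Fos and Jun proteins. The vector promoter, the share of transduced cells, the time after transduction, the age of the mice and whether libraries came from separate animals are not stated in the labels. The p-values therefore measure only the spread between these libraries, which may be technical.

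Values are in CPM, read counts of a gene scaled to a common library total, and group values are mean ± SD (n = 3). Differences are on log2(CPM + 1) as estimate ± SE from limma, a linear model fitted to 13096 genes that reached 1 CPM in at least 3 libraries. A gene was called at a Benjamini-Hochberg adjusted p under 0.05. Depth, estimated from the spacing of low values, was 19852800 to 38107800 reads, so 10 CPM rests on 199 to 381 reads and 3 reads equal 0.0787 to 0.151 CPM. Nfatc1 stood at 188 to 228 CPM in Control, 336 to 395 CPM with NFAT2_CA and 240.5 to 253 CPM with NFAT2_CARIT, and whether reads of the vector insert count towards it is not given. All 8 CD4 T cell markers had values, with a summed level of 5038 to 5193 CPM in Control, 5944 to 6416 CPM with NFAT2_CA and 5364 to 5421 CPM with NFAT2_CARIT. The mean chi-square per gene between replicates was 4.36 to 7.32 for numbers 1 and 2 and 12.7 to 26.2 for pairs with number 3. The median was also higher for pairs with number 3 in Control and NFAT2_CA, but with NFAT2_CARIT it was 1.92 for numbers 1 and 2 and 1.62 for numbers 2 and 3.

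Arginine is the shared substrate of several routes. Nitric oxide synthases turn it into nitric oxide and citrulline, and argininosuccinate synthase (Ass1) and argininosuccinate lyase (Asl) rebuild arginine from citrulline. Arginases split it into urea and ornithine, and ornithine decarboxylase (Odc1) makes putrescine, the first polyamine. Spermidine synthase (Srm) and spermine synthase (Sms) extend putrescine with groups supplied by S-adenosylmethionine decarboxylase (Amd1). Spermidine/spermine acetyltransferase (Sat1) starts the way back, and antizyme inhibitor (Azin1), an inactive relative of ornithine decarboxylase, shields that enzyme from antizyme. Polyamines are abundant in dividing T cells and are needed for hypusine, a modified residue of the translation factor eIF5A. Inducible nitric oxide synthase (Nos2) is best known from activated macrophages.

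Nos2 went from near silence in Control to about the same level with both vectors, and Odc1 was higher with both, more so with NFAT2_CARIT. The enzymes of the next steps did not follow as a block. Amd1 was higher with NFAT2_CA and within the Control range with NFAT2_CARIT, Srm was lower with both vectors, and Sms was slightly lower. Sat1 and Azin1 were moderately higher with both, and Ass1 and Asl moved little. Outside the named set, Arg1, the cytosolic arginase, was nearly absent in Control, present with NFAT2_CA and higher still with NFAT2_CARIT, while Myc, a known activator of polyamine genes, fell with both.

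In NFAT2_CA against Control, limma called 9 of the 9 genes, 6 higher and 3 lower, where 65.5% of all 13096 tested genes were called, 29% higher and 36.5% lower. In NFAT2_CARIT against Control it called 5 of 9, 4 higher and 1 lower, where 70.3% of all genes were called, 29.2% higher and 41.1% lower. Between the vectors it called 4 of 9, 2 higher and 2 lower with NFAT2_CARIT, where 28.6% of all genes were called, 11.9% higher and 16.7% lower. For 9, 6 and 5 of the 9 genes in these 3 comparisons, every library of one group lay above every library of the other, beside 68.3%, 73.1% and 44% of all genes. The median difference of the 9 genes was 0.31 with NFAT2_CA and 0.12 with NFAT2_CARIT against Control, and -0.03 between the vectors. Over all tested genes these medians were -0.06, -0.09 and -0.03. The choice of genes used these contrasts, so nothing further is read from the counts. The authors' deposited table, at an FDR under 0.05, calls fewer: Nos2, Odc1 and Sat1 with NFAT2_CA, these and Srm with NFAT2_CARIT, and 0 of the 9 between the vectors. The authors' deposited table calls 21.8%, 25.6% and 2.84% of its 16500 genes in these comparisons.

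**Figure D1:**
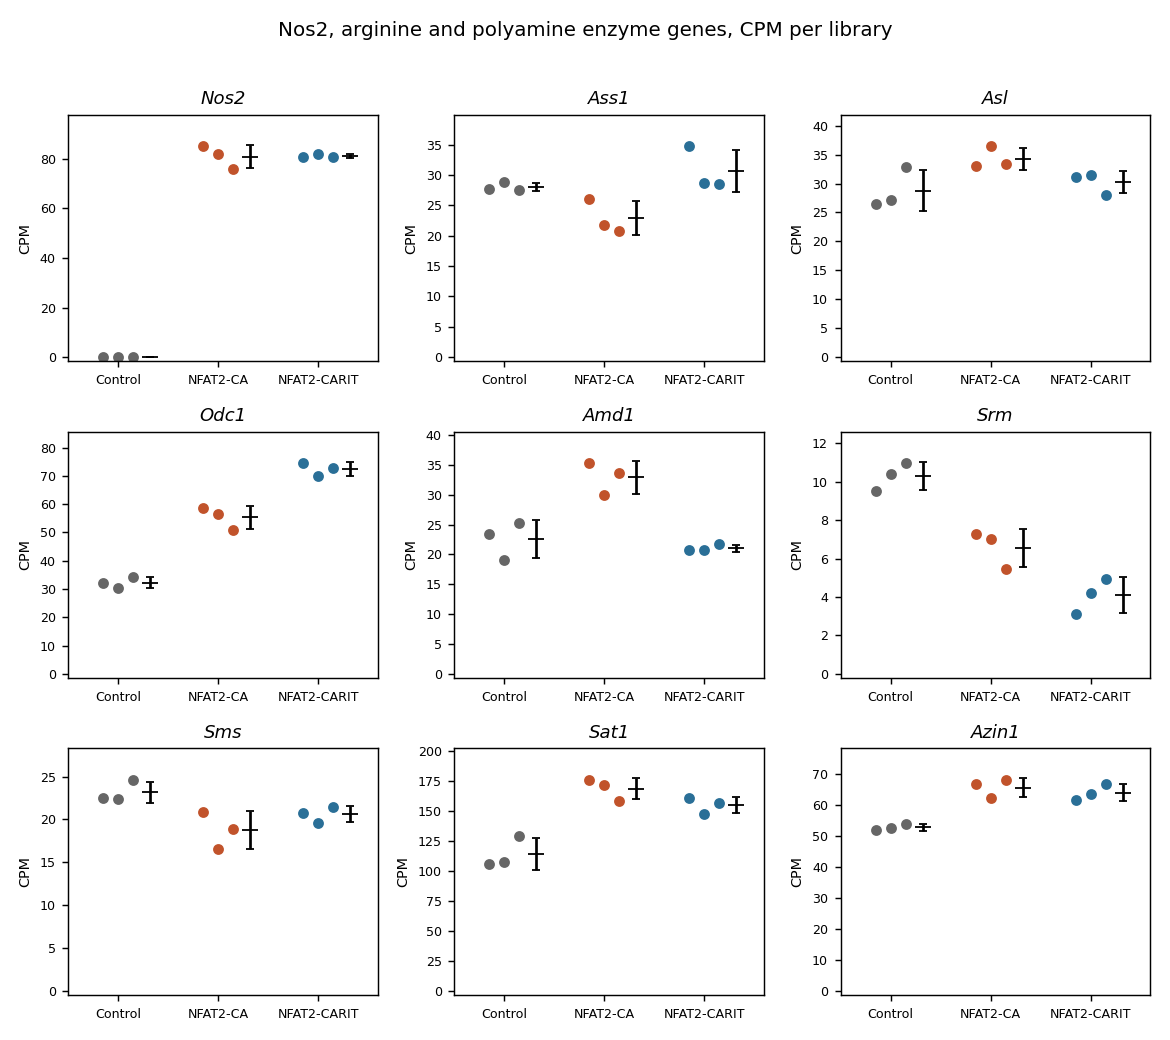
CPM of the 9 genes in each library (y axis, CPM, each panel from 0) by vector (x axis); points are libraries, and the black bar with whiskers is the mean ± SD of 3. Nos2 sits at 0.0851 to 0.167 CPM in Control and at 75.8 to 85.0 CPM in the 6 NFAT2 libraries, and Odc1 is stepped over the 3 groups without overlap.

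Nos2 (chromosome 11, 78920787 to 78960255, mm10, plus strand) stood at 0.0851, 0.0946 and 0.167 CPM in Control replicates 1, 2 and 3, which correspond to about 2, 3 and 4 reads. It was 85.0, 81.9 and 75.8 CPM with NFAT2_CA and 80.6, 81.9 and 80.6 CPM with NFAT2_CARIT. Every NFAT2 library was far above every Control library, and the ranges with the 2 vectors overlapped. From summed reads, 9 in Control against 6022 and 7651, the fold was 711 with NFAT2_CA (95% exact binomial interval 375 to 1557) and 712 with NFAT2_CARIT (375 to 1558). These intervals cover counting error only. On the log2 scale with 1 CPM added, the differences were 6.20 ± 0.08 with each vector, and they ranged from 4.07 with 5 CPM added to 7.05 with 0.5. The difference between the vectors was 0.00 ± 0.08. Nos2 passed the filter on low values only through its NFAT2 libraries.

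In bulk RNA, fewer cells of a type and less RNA per cell cannot be told apart. Since Nos2 is a macrophage gene, the markers of macrophages and monocytes were read out beside it. Values were at hand for 6 of the 19 listed markers, and their summed level was 22.2 to 25.9 CPM in Control, 9.18 to 10.0 CPM with NFAT2_CA and 10.9 to 12.9 CPM with NFAT2_CARIT. The sum was thus lower in the libraries with Nos2, with the integrin gene Itgam at 6.83 to 9.29 CPM in Control and 0.632 to 1.70 CPM in the NFAT2 libraries, and the chemokine receptor gene Ccr2, which T cells can also express, at 9.16 to 14.8 and 0.601 to 1.75 CPM. Cd14, the lipopolysaccharide co-receptor, was listed at 0 in Control replicates 2 and 3 and at 0.0851 CPM in replicate 1, and lay between 0.351 and 1.05 CPM in the NFAT2 libraries. Fcer1g, an Fc receptor chain of myeloid cells, stayed under 1 CPM in every library. Dendritic cell markers, 5 of 9 with values, summed to 7.69 to 9.64 CPM in Control, 16.7 to 19.1 CPM with NFAT2_CA and 17.5 to 20.9 CPM with NFAT2_CARIT. They were led by H2-Eb1 and Cd74 of class II antigen presentation. Zbtb46 of the same list was lower in level, at 0.981 ± 0.569, 2.23 ± 0.408 and 4.32 ± 0.402 CPM, and its groups did not overlap. H2-Aa and Xcr1 stayed under 1 CPM in every library. B cell markers (3 of 6) summed to 411 to 422 CPM in Control against 206 to 211 and 182 to 204 CPM, nearly all of it Ighm (408 to 419, 205 to 210.2 and 181 to 202 CPM), while Cd79a and Cd79b were under 3 CPM in every library. CD8 T cell and NK cell markers (4 of 7) stood at 16.5 to 18.1, 31.3 to 33.3 and 24.5 to 25.7 CPM. Most of this was Cd8b1, at 12.7 ± 0.464, 28.9 ± 1.38 and 21.4 ± 0.794 CPM, while Eomes was lower with the vectors, at 3.59 ± 0.0948, 2.58 ± 0.246 and 1.52 ± 0.180 CPM. The mast cell list had 1 of 6 markers with a value, at 0.928 to 3.81 CPM over all libraries, and the neutrophil and erythroid lists had 1 of 9 and 1 of 5, both under 1 CPM everywhere. The part of these cell types in the Nos2 values was not tested.

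Likeness to Nos2 was taken as a small root mean square difference in log2(CPM + 1) less the Control mean over the 9 libraries. Gene models with Gm or Rik names and antigen receptor segments were left out of the ranking. Among the other tested genes, those most like Nos2 were Hspa1a (0.23), Hspa1b (0.50), Bend4 (0.57), Hdc (0.64) and Plek (0.91). Hspa1a and Hspa1b encode near-identical inducible HSP70 chaperones whose reads cannot be divided with certainty, Hdc encodes the histamine-forming enzyme and Plek encodes pleckstrin. Hdc was closest in level with the vectors, at 84.3 ± 6.82 CPM with NFAT2_CA and 77.4 ± 3.63 CPM with NFAT2_CARIT, from 0.908 ± 0.116 CPM in Control. Hspa1a stood at 0.51 ± 0.404 CPM in Control, 108 ± 10.2 CPM with NFAT2_CA and 99.1 ± 8.24 CPM with NFAT2_CARIT. Bend4 and Plek split between the vectors where Nos2 did not, with Bend4 at 166 ± 5.95 and 398 ± 6.79 CPM and Plek at 216 ± 8.42 and 72.5 ± 1.31 CPM. The likeness is a description of 9 libraries that share 3 group means.

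Ass1 (chromosome 2, 31470207 to 31520673), the enzyme that joins citrulline to aspartate, stood at 27.7, 28.8 and 27.6 CPM in Control. It was 26.0, 21.8 and 20.8 CPM with NFAT2_CA and 34.7, 28.7 and 28.6 CPM with NFAT2_CARIT. NFAT2_CA libraries lay below all others, while NFAT2_CARIT libraries overlapped Control, with replicate 1 standing above the rest. The differences from Control were -0.29 ± 0.09 and 0.12 ± 0.09, and NFAT2_CARIT was above NFAT2_CA by 0.41 ± 0.09. The call with NFAT2_CA was lost without NFAT2_CA replicate 3, at -0.22, and under median-of-ratios scaling NFAT2_CARIT was called above Control, at 0.22.

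Asl (chromosome 5, 130011258 to 130029248), the lyase of the next step, stood at 26.4, 27.1 and 32.8 CPM in Control. It was 33.0, 36.4 and 33.4 CPM with NFAT2_CA and 31.1, 31.5 and 28.0 CPM with NFAT2_CARIT. Control replicate 3 almost reached the NFAT2_CA libraries. The difference was 0.25 ± 0.08 with NFAT2_CA and 0.07 ± 0.08 with NFAT2_CARIT, and -0.18 ± 0.08 between the vectors. The NFAT2_CA call was lost without Control replicate 1 (0.19), Control replicate 2 (0.21) or NFAT2_CA replicate 2 (0.21). The pair of arginine-rebuilding enzymes thus changed by at most 1.34-fold between any groups.

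Odc1 (chromosome 12, 17544794 to 17551506), the first committed enzyme of polyamine synthesis, stood at 32.1, 30.5 and 34.2 CPM in Control. It was 58.7, 56.6 and 50.9 CPM with NFAT2_CA and 74.5, 69.9 and 72.9 CPM with NFAT2_CARIT. The 3 groups did not overlap. NFAT2_CA libraries were 1.72-fold above Control in mean, a difference of 0.76 ± 0.07, and NFAT2_CARIT libraries were 2.25-fold above it, 1.14 ± 0.07. NFAT2_CARIT was above NFAT2_CA by 0.38 ± 0.07. Of the genes tested, 77.6% and 86.6% had a smaller absolute difference from Control than Odc1 with NFAT2_CA and NFAT2_CARIT.

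Azin1 (chromosome 15, 38487427 to 38519267) stood at 51.8, 52.7 and 54.0 CPM in Control. It was 66.7, 62.2 and 68.1 CPM with NFAT2_CA and 61.6, 63.7 and 66.9 CPM with NFAT2_CARIT. All NFAT2 libraries were above all Control libraries, by 0.31 ± 0.06 and 0.27 ± 0.06, and the vectors overlapped (-0.03 ± 0.06). Oaz1, the gene of the antizyme that Azin1 counters, was 99.0 ± 8.68 CPM in Control, 95.6 ± 3.24 CPM with NFAT2_CA and 93.0 ± 2.80 CPM with NFAT2_CARIT. Its differences from Control were -0.05 ± 0.06 and -0.09 ± 0.06 (limma adjusted p = 0.542 and 0.253). Antizyme is made through a frameshift that responds to polyamines, a step that RNA levels do not show.

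Amd1 (chromosome 10, 40287458 to 40302189), the supplier of aminopropyl groups, stood at 23.4, 19.1 and 25.2 CPM in Control. It was 35.3, 29.9 and 33.6 CPM with NFAT2_CA and 20.7, 20.8 and 21.7 CPM with NFAT2_CARIT. NFAT2_CA libraries lay above all others, by 0.53 ± 0.09 over Control, and NFAT2_CARIT libraries fell inside the Control range (-0.09 ± 0.09). Between the vectors the difference was -0.62 ± 0.09, larger in size than that of 94.3% of the genes tested. Amd2, a close copy of Amd1 whose reads may be shared with it, was 7.83 ± 0.805 CPM in Control, 11.3 ± 2.49 CPM with NFAT2_CA and 7.06 ± 0.883 CPM with NFAT2_CARIT. It rose with NFAT2_CA by 0.46 ± 0.14 (limma adjusted p = 0.00771), but by 0.30 (adjusted p = 0.061) without NFAT2_CA replicate 1. Since the method of counting is not given, the pair cannot be read as 2 separate results.

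Srm (chromosome 4, 148591503 to 148594994), which makes spermidine, stood at 9.52, 10.4 and 10.96 CPM in Control. It was 7.25, 6.996 and 5.44 CPM with NFAT2_CA and 3.12, 4.23 and 4.96 CPM with NFAT2_CARIT. The 3 groups did not overlap, in the order opposite to Odc1. The differences of Srm from Control were -0.58 ± 0.14 and -1.16 ± 0.14, a mean in NFAT2_CARIT libraries of 0.399 times that in Control, and the difference between the vectors was -0.58 ± 0.14. Srm had the lowest CPM of the 9 genes outside Nos2 in Control, and its SE was the largest. Srm fell under the stricter filter of 10 CPM, so that alternative gives no value for it.

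Sms (chromosome X, 157443855 to 157492288), which makes spermine, stood at 22.5, 22.4 and 24.6 CPM in Control. It was 20.9, 16.5 and 18.8 CPM with NFAT2_CA and 20.7, 19.6 and 21.4 CPM with NFAT2_CARIT. Both vectors lay just below Control and overlapped each other. The difference with NFAT2_CA was -0.30 ± 0.09, and this call was lost without NFAT2_CA replicate 2 (-0.21). With NFAT2_CARIT it was -0.16 ± 0.09, and between the vectors 0.13 ± 0.09.

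Sat1 (chromosome X, 155213132 to 155216450), whose product acetylates spermidine and spermine for export or oxidation, stood at 106, 107 and 129 CPM in Control. It was 176, 172 and 159 CPM with NFAT2_CA and 161, 148 and 157 CPM with NFAT2_CARIT. Every NFAT2 library was above every Control library, by 0.57 ± 0.07 and 0.44 ± 0.07, and the vectors overlapped (-0.12 ± 0.07). Smox, spermine oxidase, which turns spermine back into spermidine, rose from 53.4 ± 1.30 CPM to 84.3 ± 2.77 CPM with NFAT2_CA (0.65 ± 0.06, limma adjusted p = 4.35e-08) and 105 ± 4.07 CPM with NFAT2_CARIT (0.96 ± 0.06, adjusted p = 2.75e-10). It was higher with NFAT2_CARIT than with NFAT2_CA by 0.31 ± 0.06 (adjusted p = 0.000723). Paox, the oxidase of the acetylated forms, fell from 7.38 ± 0.518 CPM to 4.23 ± 0.698 and 3.47 ± 0.490 CPM (limma adjusted p = 0.00026 and 1.33e-05).

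**Figure D2:**
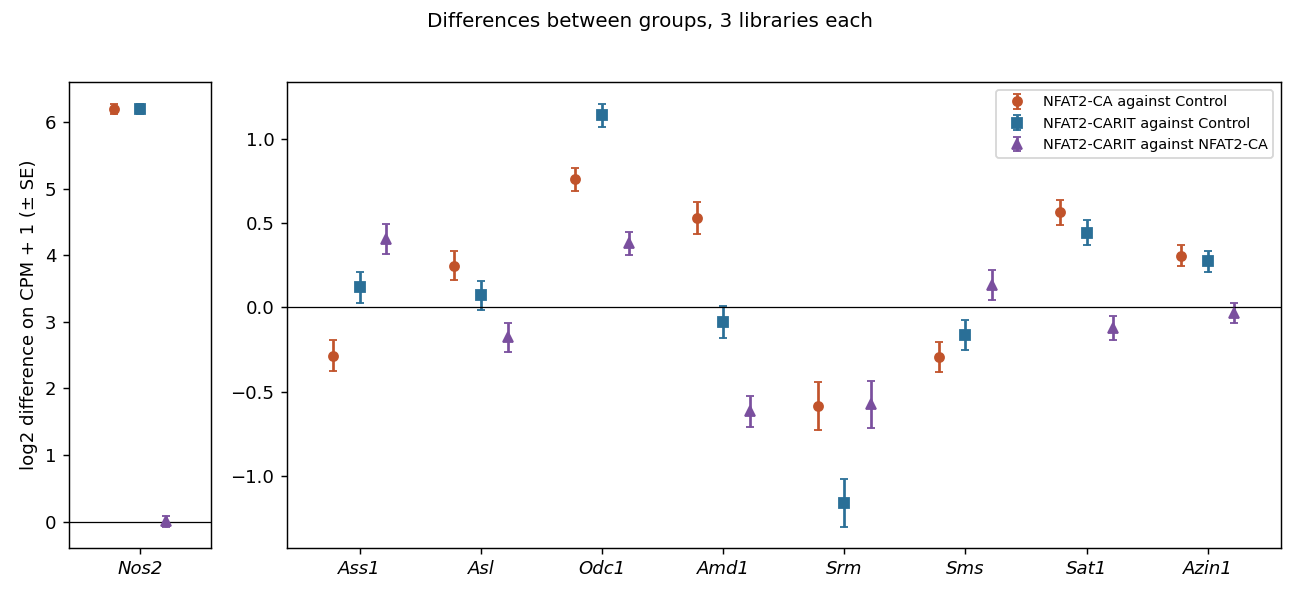
Differences between groups on log2(CPM + 1) (y axis, ± SE from limma, 3 libraries a group) for Nos2 on its own scale at left and the other 8 genes at right. Odc1 and Srm move in opposite directions with the larger size for NFAT2_CARIT (1.14 and -1.16), and Amd1 differs from Control with NFAT2_CA (0.53) but lies near 0 with NFAT2_CARIT (-0.09).

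Levels of different genes were compared as CPM per kilobase of joined exons in GENCODE M21. In Control, Sat1 was highest at 41.2, followed by Ass1 at 11.6, Odc1 at 9.48 and Azin1 at 8.44, each clear of the next in all 3 libraries. Srm (6.44), Amd1 (6.38) and Asl (5.96) followed with overlapping libraries, then Sms (3.85) and last Nos2 (0.0262). With NFAT2_CA, Nos2 was second at 18.3 CPM per kilobase and overlapped Odc1 at 16.3. Azin1 (10.5), Ass1 (9.48) and Amd1 (9.30) formed the next overlapping run. With NFAT2_CARIT, Odc1 moved ahead of Nos2, 21.3 against 18.4, with no overlap, and Srm came last at 2.57. These values rest on annotated exon lengths. Within the annotated bounds, Odc1 also holds the snoRNA Gm22748 on its strand, and Azin1 the miRNA Mir6951 and part of the antisense gene Gm49077; whether counting used strand is not given.

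Promoter sequence was at hand for 5 of the 10 genes, in 6 windows of 250 bases before RefSeq start sites on GRCm38.p6. Shown are the windows of the 4 polyamine genes among them, because these moved differently in the same cells: Odc1 and Sat1 higher with both vectors, Amd1 with NFAT2_CA, and Sms slightly lower. They are on the gene's strand, 5′ to 3′, in lower case with a match to a searched motif in capitals, and the Odc1 window ends before the first base that GENCODE M21 annotates as untranslated region. Odc1 is chr12:17544623-17544793 (plus strand), Sat1 chrX:155216450-155216699 (minus), Amd1 chr10:40302189-40302438 (minus) and Sms chrX:157492288-157492537 (minus).
Odc1: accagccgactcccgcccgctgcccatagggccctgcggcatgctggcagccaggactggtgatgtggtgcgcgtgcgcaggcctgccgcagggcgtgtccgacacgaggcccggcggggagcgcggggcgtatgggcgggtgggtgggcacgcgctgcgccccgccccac
Sat1: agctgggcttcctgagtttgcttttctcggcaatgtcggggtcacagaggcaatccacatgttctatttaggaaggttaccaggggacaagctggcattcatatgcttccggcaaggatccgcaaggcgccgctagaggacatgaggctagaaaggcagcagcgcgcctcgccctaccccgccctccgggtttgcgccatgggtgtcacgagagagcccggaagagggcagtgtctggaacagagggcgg
Amd1: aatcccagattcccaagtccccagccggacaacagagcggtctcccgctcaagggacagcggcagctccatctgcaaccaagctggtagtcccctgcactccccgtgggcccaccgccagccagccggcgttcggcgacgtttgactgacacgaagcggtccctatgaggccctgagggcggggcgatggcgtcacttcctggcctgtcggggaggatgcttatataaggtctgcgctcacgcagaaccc
Sms: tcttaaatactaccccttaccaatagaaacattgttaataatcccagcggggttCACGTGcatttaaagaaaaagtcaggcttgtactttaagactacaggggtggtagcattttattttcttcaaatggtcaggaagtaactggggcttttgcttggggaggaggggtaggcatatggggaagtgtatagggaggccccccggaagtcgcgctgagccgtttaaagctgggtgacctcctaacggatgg

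Searched on both strands of the 6 full windows were GGAAA (the NFAT core, 55.6% of 32851 RefSeq windows of the same length), TGANTCA (AP-1, 6.75%), CACGTG (E-box, bound by Myc, 6.02%), TTCNNNGAA (STAT, 7.02%) and TTGCATCA (C/EBP-ATF, 0.791%). The motifs do not overlap one another in these windows. The E-box was the only one found, once in the upstream Sms window, in capitals above, and once in the Ass1 window, 36 bases before its RefSeq start site. The Ass1 match lies in the last 63 bases of that window, which GENCODE M21 annotates as untranslated region, so by that annotation it is inside the transcript. G and C made up 80.0% of the Odc1 window, 75.6% for Ass1, 64.4% for Amd1, 59.6% for Sat1 and 47.2% and 75.2% of the Sms pair, against a median of 52.4% over all windows. A match is a description of letters, and the lack of one says only that these letters are not in the window.

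Of 88 other genes of the pathways, 71 had values and 64 were tested. With NFAT2_CA, 22 rose, 26 fell and 16 did not pass, so 75% were called beside 65.5% of all genes. With NFAT2_CARIT, 20 rose, 29 fell and 15 did not pass, 76.6% called beside 70.3%. Between the vectors, 9 were higher and 14 lower with NFAT2_CARIT and 41 did not pass, 35.9% called beside 28.6%. Their median differences were -0.04, -0.12 and -0.05, close to those of all genes. The balance of higher and lower calls moved with the scaling. Under median-of-ratios scaling these genes gave 23 higher and 25 lower with NFAT2_CA, 25 and 26 with NFAT2_CARIT and 11 and 13 between the vectors, and all genes gave 4274 and 4194, 4514 and 4552, and 1935 and 1857. Under quantile normalization all genes gave 1823 higher and 1763 lower between the vectors. Arg1, Pycr1, Gatm, Slc7a7 and Mycn, which had no Control library at 1 CPM and passed the filter only through NFAT2 libraries, are in the counts and medians of their lists, so these are no support for a direction. The comparisons with Control share the same 3 Control libraries.

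**Figure D3:**
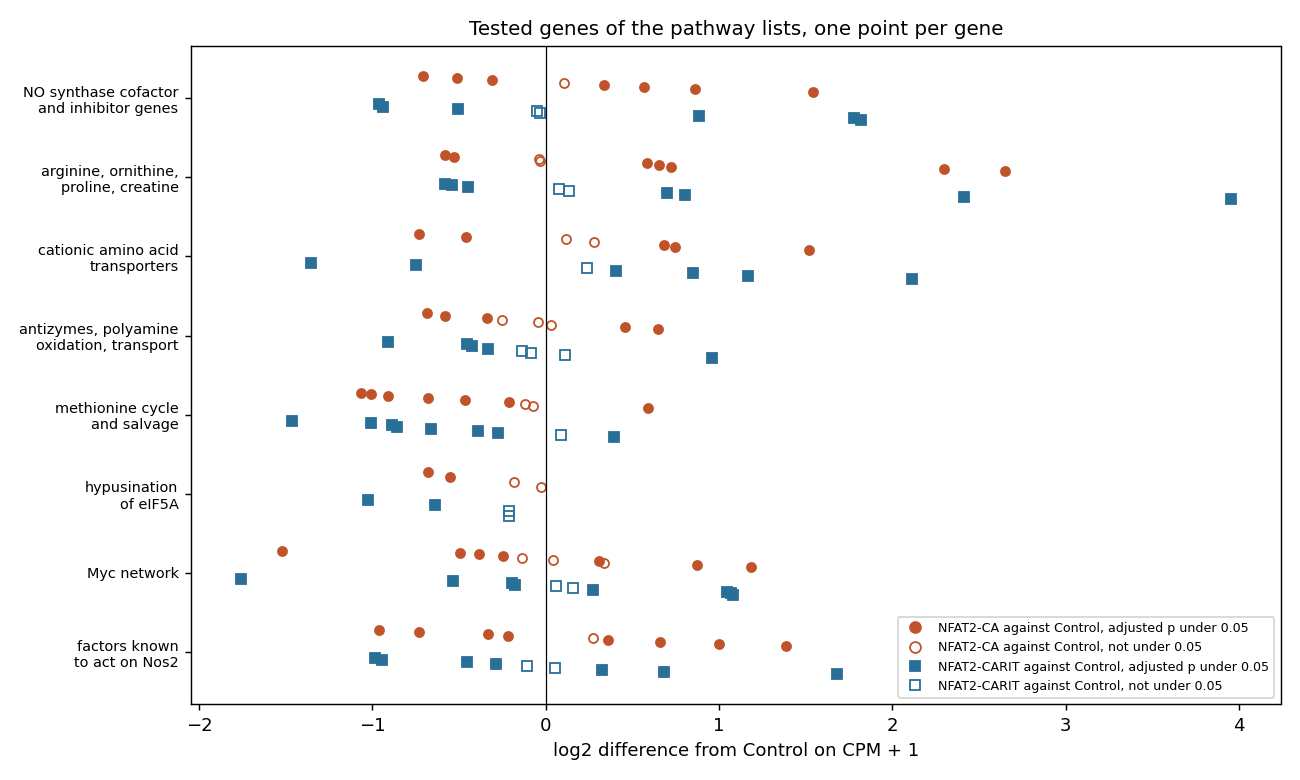
Differences from Control on log2(CPM + 1) (x axis) for each tested gene of 8 pathway lists (rows); circles are NFAT2_CA, squares NFAT2_CARIT, and filled symbols had a limma adjusted p under 0.05. Arg1 is the square at 3.95, Myc the lowest square at -1.76, and the methionine cycle and hypusination rows lie mostly below 0.

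Arginine, ornithine, proline and creatine enzymes were 5 up and 2 down of 9 tested with NFAT2_CA and 4 up and 3 down with NFAT2_CARIT, with medians of 0.59 and 0.13. Called were 77.8% with each vector, beside 65.5% and 70.3% of all genes. Arg1 (chromosome 10, 24915221 to 24927485) was listed at 0 in Control replicates 1 and 2 and at 0.0418 CPM, about 1 read, in replicate 3. It was 4.02, 4.15 and 3.79 CPM with NFAT2_CA and 15.002, 13.3 and 15.9 CPM with NFAT2_CARIT. The groups did not overlap, with NFAT2_CARIT far above NFAT2_CA. Arg1 stood above Control by 2.30 ± 0.12 and 3.95 ± 0.12, given without a p-value because it passed the filter on low values only through its NFAT2 libraries. It was higher with NFAT2_CARIT than with NFAT2_CA by 1.66 ± 0.12 (limma adjusted p = 7.94e-08). From summed reads, 1 in Control against 297 and 1372, the folds were 316 (95% exact binomial interval 56.2 to 12514) and 1149 (206 to 45417), counting error only. Arg1 is, like Nos2, best known from macrophages.

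The ornithine-to-proline branch also moved. Pycr1, the mitochondrial enzyme of the last step of proline synthesis, was at 0.707 ± 0.138 CPM in Control, 9.68 ± 0.434 CPM with NFAT2_CA and 8.08 ± 0.611 CPM with NFAT2_CARIT. Pycrl, of the same family, fell by 0.53 with NFAT2_CA and fell by 0.45 with NFAT2_CARIT on the log2 scale (limma adjusted p = 0.000391 and 0.00143). Aldh18a1, which makes the proline and ornithine precursor from glutamate, rose from 62.3 ± 2.87 CPM to 104 ± 5.15 and 102 ± 3.24 CPM. Oat, ornithine aminotransferase, rose from 33.6 ± 2.00 CPM to 51.0 ± 2.29 and 59.6 ± 4.78 CPM. Gatm, the first enzyme of creatine synthesis, was at 0.662 ± 0.165 CPM in Control and stood above it by 0.65 ± 0.20 with NFAT2_CA. Prodh, which starts proline breakdown, was at 0.737 ± 0.259 CPM with NFAT2_CARIT and 1.57 ± 0.632 CPM with NFAT2_CA. Pycr1, Gatm and Prodh passed the filter only through the groups where they were high, so these differences are a description with no p-value.

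**Figure D4:**
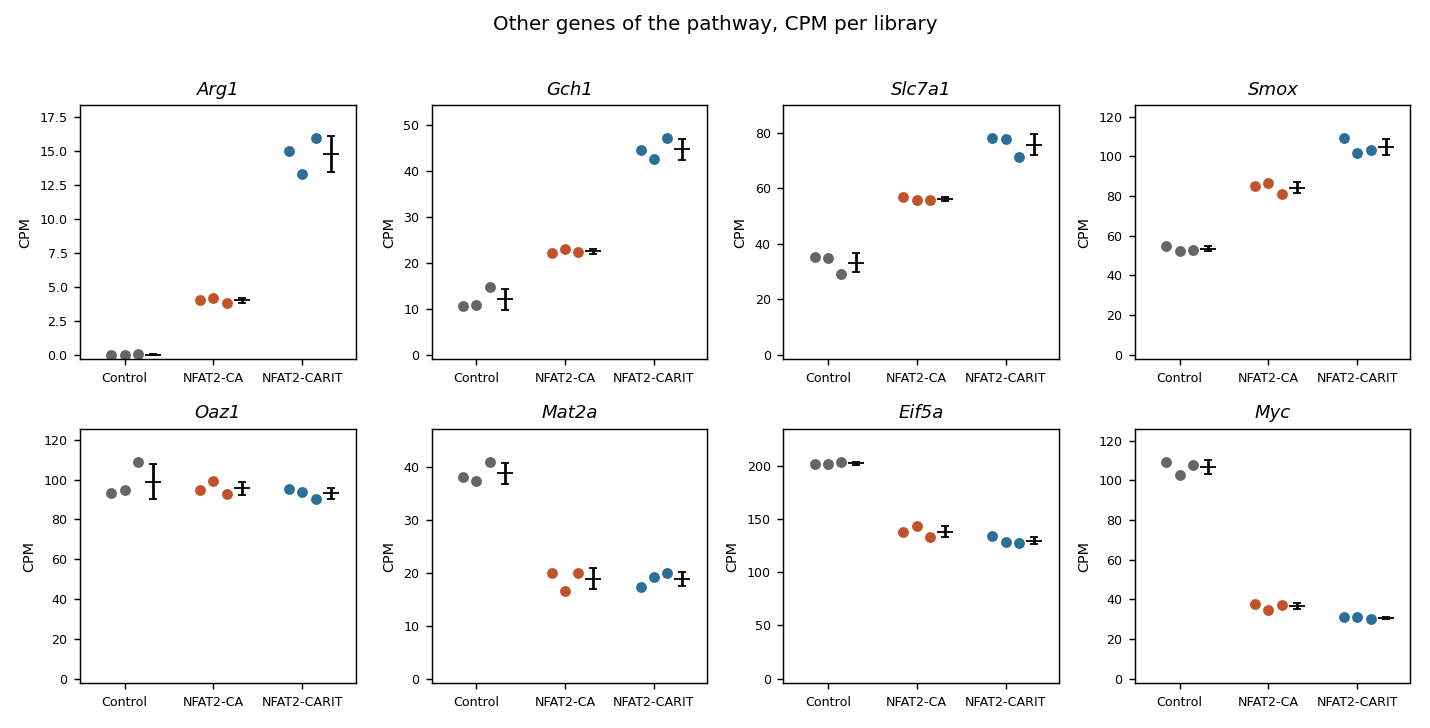
CPM of 8 further genes in each library (y axis, CPM, each panel from 0) by vector (x axis), with points for libraries and the mean ± SD of 3 in black. Arg1, Gch1, Slc7a1 and Smox step up from Control to NFAT2_CA to NFAT2_CARIT without overlap, Mat2a, Eif5a and Myc are lower with both vectors, and Oaz1 overlaps in all groups.

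Among the genes that serve nitric oxide synthases, 4 rose and 3 fell of 8 tested with NFAT2_CA, and 3 rose and 3 fell with NFAT2_CARIT, with medians of 0.22 and -0.04. Called were 87.5% and 75%, beside 65.5% and 70.3% of all genes. Gch1, GTP cyclohydrolase, the entry enzyme of the synthesis of the cofactor tetrahydrobiopterin, was 10.7, 10.9 and 14.7 CPM in Control. It was 22.1, 23.1 and 22.4 CPM with NFAT2_CA and 44.5, 42.7 and 47.3 CPM with NFAT2_CARIT. Gch1 rose by 0.86 ± 0.10 and 1.82 ± 0.10 (limma adjusted p = 1.05e-06 and 8.74e-11), and by 0.96 ± 0.10 from NFAT2_CA to NFAT2_CARIT (adjusted p = 2.52e-06), where the Nos2 difference was 0.00 ± 0.08. The later enzymes of the cofactor's synthesis fell. Pts went from 50.5, 55.8 and 66.2 CPM in Control to 46.0 ± 1.17 CPM and 40.0 ± 2.49 CPM (limma adjusted p = 0.00417 and 5.28e-05), and Spr from 13.5 ± 0.908 CPM to 9.21 ± 0.748 and 6.59 ± 0.467 CPM. Ddah2, which breaks down a methylated arginine that inhibits the synthases, rose from 5.79 ± 0.712 CPM to 18.7 ± 1.41 and 22.3 ± 2.08 CPM (limma adjusted p = 1.39e-09 and 1.89e-10). Pcbd2, a gene of cofactor recycling, fell by 0.71 with NFAT2_CA and fell by 0.96 with NFAT2_CARIT. Qdpr, another recycling enzyme, rose with NFAT2_CA by 0.34 ± 0.06 (adjusted p = 0.000173), and stood at -0.05 ± 0.06 with NFAT2_CARIT (adjusted p = 0.506). Nos3, the endothelial synthase, stayed low at 0.10 ± 0.02 CPM in Control, 0.74 ± 0.20 CPM with NFAT2_CA and 0.42 ± 0.25 CPM with NFAT2_CARIT, and was not tested.

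Cationic amino acid and ornithine transporters were 3 up and 2 down of 7 with NFAT2_CA and 4 up and 2 down with NFAT2_CARIT, with medians of 0.28 and 0.41. Called were 71.4% and 85.7%, beside 65.5% and 70.3% of all genes. Slc7a1, the main arginine importer of many cells, was 35.3, 34.9 and 29.2 CPM in Control, 57.0, 55.6 and 55.6 CPM with NFAT2_CA and 78.0, 77.6 and 71.2 CPM with NFAT2_CARIT. It rose by 0.75 ± 0.07 and 1.17 ± 0.07 (limma adjusted p = 1.81e-07 and 5.78e-10), and was higher with NFAT2_CARIT than with NFAT2_CA by 0.42 ± 0.07 (adjusted p = 0.000446). Slc3a2, the shared heavy chain of several amino acid exchangers, rose from 90.4 ± 0.709 CPM to 261 ± 16.4 and 394 ± 19.3 CPM. Its arginine-exchanging light chain gene Slc7a6 fell from 49.1 ± 1.17 CPM to 35.4 ± 1.72 and 28.8 ± 0.717 CPM. The other such gene, Slc7a7, was at 0.545 ± 0.194 CPM in Control and stood above it by 0.68 ± 0.17 and 0.85 ± 0.17, with no p-value since it passed the filter only through its NFAT2 libraries. Slc7a2 was not analysed here. Slc25a15, the mitochondrial ornithine carrier, fell from 12.8 ± 0.391 CPM to 7.31 ± 0.333 and 4.43 ± 0.548 CPM, and was lower with NFAT2_CARIT than with NFAT2_CA (limma adjusted p = 0.000397).

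Antizyme, polyamine oxidation and transport genes were 2 up and 3 down of 8 with NFAT2_CA and 1 up and 4 down with NFAT2_CARIT, with medians of -0.15 and -0.23. Called were 62.5% with each vector, beside 65.5% and 70.3% of all genes. Beside Smox, Paox and Amd2, the lysosomal polyamine transporter gene Atp13a2 fell by 0.34 and 0.45 on the log2 scale, and its relative Atp13a3 by 0.58 and 0.43. The second antizyme gene, Oaz2, stood at 0.03 ± 0.06 and 0.11 ± 0.06 (limma adjusted p = 0.687 and 0.126).

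The methionine cycle, which makes the S-adenosylmethionine that Amd1 uses, and the salvage of its methylthioadenosine by-product were mostly lower. With NFAT2_CA, 1 rose and 6 fell of 9 tested, and with NFAT2_CARIT 1 rose and 7 fell, with medians of -0.46 and -0.66 beside -0.06 and -0.09 over all genes. Called were 77.8% and 88.9%, beside 65.5% and 70.3% of all genes. Over all genes, 36.5% and 41.1% were called lower. Mat2a, the catalytic S-adenosylmethionine synthetase of T cells, went from 38.2, 37.3 and 41.0 CPM to 20.03, 16.6 and 19.98 CPM with NFAT2_CA and 17.3, 19.1 and 19.9 CPM with NFAT2_CARIT. It fell by 1.01 with each vector (limma adjusted p = 3.18e-08 and 2.51e-08). Mtap, which cleaves methylthioadenosine, the product that Srm and Sms leave behind, fell from 33.2 ± 0.892 CPM to 15.3 ± 0.349 and 11.4 ± 0.980 CPM (adjusted p = 6.63e-09 and 1.04e-10). The salvage dioxygenase gene Adi1 fell by 0.91 and 0.89, and Mtr, methionine synthase, by 0.68 and 0.86. Ahcy, which clears S-adenosylhomocysteine, was the one that rose, from 27.4 ± 1.68 CPM to 41.9 ± 4.05 and 36.4 ± 1.92 CPM.

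Of the 4 genes of eIF5A hypusination, 2 fell with each vector and 2 did not pass. Thus 50% were called with each vector, below the 65.5% and 70.3% of all genes. Over all genes, 36.5% and 41.1% were called lower, so the count is not read further. Eif5a, the translation factor that carries hypusine, went from 202, 202 and 204 CPM to 138, 143 and 133 CPM with NFAT2_CA and 134, 128 and 127 CPM with NFAT2_CARIT. It fell by 0.55 and 0.64 (limma adjusted p = 1.46e-07 and 1.94e-08). Eif5a2, its second copy, fell by 0.68 with NFAT2_CA and fell by 1.02 with NFAT2_CARIT. Dhps, which transfers part of spermidine onto eIF5A, was 19.4 ± 1.82 CPM in Control, 16.9 ± 0.799 CPM with NFAT2_CA and 16.7 ± 1.84 CPM with NFAT2_CARIT (limma adjusted p = 0.0977 and 0.058).

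In the Myc network, 3 rose and 4 fell of 10 with NFAT2_CA, and 4 rose and 4 fell with NFAT2_CARIT. Called were 70% and 80%, beside 65.5% and 70.3% of all genes. Myc, which binds E-boxes and is known to raise Odc1 and Srm, went from 109, 103 and 108 CPM to 37.8, 34.8 and 36.9 CPM with NFAT2_CA and 30.9, 31.2 and 30.2 CPM with NFAT2_CARIT. It fell by 1.52 and 1.76 (limma adjusted p = 1.84e-12 and 2.71e-13), and by a further 0.24 ± 0.06 between the vectors (adjusted p = 0.00708). Srm was thus lower, and Odc1 higher, in the libraries with less Myc RNA; a link was not tested. Mxi1 and Mxd3, members of the Mad family that compete with Myc for its partner Max, rose by 1.18 and 0.87 with NFAT2_CA and by 1.05 and 1.07 with NFAT2_CARIT. Mxd1 of the same family fell with NFAT2_CA by 0.50 and stood at 0.06 ± 0.06 with NFAT2_CARIT, a difference between the vectors of 0.55 ± 0.06 (adjusted p = 3.17e-06). Mycn, a relative of Myc, was at 0.126 ± 0.00126 CPM in Control, 0.426 ± 0.0822 CPM with NFAT2_CA and 1.41 ± 0.432 CPM with NFAT2_CARIT. It passed the filter only through NFAT2_CARIT libraries, so no p-value is given. Mga, another partner of Max, was lower with NFAT2_CARIT than with NFAT2_CA, 118 ± 5.59 against 156 ± 17.1 CPM (adjusted p = 0.000862).

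Factors known to act on Nos2 in macrophages were 4 up and 4 down of 9 with NFAT2_CA and 3 up and 4 down with NFAT2_CARIT, with medians of 0.27 and -0.11. Called were 88.9% and 77.8%, beside 65.5% and 70.3% of all genes. Irf1, which acts on Nos2 downstream of interferon-gamma, fell with both, from 324 ± 9.99 CPM to 165 ± 1.49 and 168 ± 5.02 CPM (limma adjusted p = 1.08e-10 and 1.21e-10). The NF-kappaB subunit genes Nfkb1 and Rela fell less, by 0.33 and 0.22 with NFAT2_CA and by 0.45 and 0.29 with NFAT2_CARIT. Hif1a, the oxygen-regulated factor, rose from 965 ± 81.4 CPM to 1524 ± 84.2 and 1548 ± 40.0 CPM (limma adjusted p = 2.23e-07 and 1.24e-07). Nfkbiz, a nuclear IkB protein, rose by 1.39 ± 0.11 and 1.68 ± 0.11. Cebpb, a C/EBP factor, rose by 1.00 ± 0.09 with NFAT2_CA and 0.32 ± 0.09 with NFAT2_CARIT, and was lower with NFAT2_CARIT by 0.68 ± 0.09 (adjusted p = 6.11e-05). Irf8, an interferon-regulated factor, was also lower with NFAT2_CARIT than with NFAT2_CA, 42.5 ± 0.962 against 52.9 ± 2.01 CPM (limma adjusted p = 0.00123). RNA levels do not show the activity of these factors.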

How the data were processed

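RNA sequencing values of 9 libraries were used as deposited. The deposited values are in CPM: all libraries sum to one total. The lowest value, 0.0001, is an offset of the authors, as checked on the file, and a gene at it is called listed at 0. Per the submitters' processing notes the build is mm10 and the tools were Partek 10 and DESeq2. The authors' deposited comparison table gives, per the file headers, p-values, FDR values, ratios between groups and their log2. The aligner, counter, annotation and use of strand: not given in the sources used here. Of values up to 1 CPM, 82.1% to 84.8% were whole reads within 0.1 read of the estimated depth, so reads were not rebuilt for testing.

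Values as log2(CPM + 1) from all 9 libraries were fitted with a mean per group in limma 3.58.1 (R 4.3.3), with moderated variances (trend and robust), and p-values were adjusted by Benjamini-Hochberg over 13096 genes at 1 CPM or more in 3 libraries. It was tested on simulated data. Python 3.11.15, pandas 2.3.3, NumPy 2.4.6, SciPy 1.17.1 and matplotlib 3.10.9 did the rest. The genes and lists were chosen with earlier results of these data known. Named were the 9 genes with values and, per list and comparison, up to 4 called genes with the largest difference, plus Arg1, Nos3, Gch1, Slc7a1, Slc7a2, Oaz1, Smox, Eif5a, Dhps, Mat2a and Myc whatever their result, and the 5 genes most like Nos2. Further genes in the text were chosen after their values were seen. Of the pathway lists these were Oaz2, Pts, Pycrl, Ahcy, Nfkb1 and Rela. Of the marker lists they were Lat, Cd5, Zap70, Cd3e, Itgam, Ccr2, Cd14, Fcer1g, H2-Eb1, Cd74, Zbtb46, H2-Aa, Xcr1, Ighm, Cd79a, Cd79b, Cd8b1 and Eomes. Alternatives were 2 scalings, 2 pseudocounts, 2 filters, a fit restricted to the 6 libraries of a comparison, a replicate block, plain empirical Bayes and leaving out each library. A few list members enter the counts without being reported here by name.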

Additional observations from a re-analysis of the deposited data

How the results depend on the processing

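Under the 18 alternatives, each count of called genes stayed within 1.5 times its reported value and no called difference of a named gene changed sign. The 9 nitric oxide, arginine and polyamine genes gave 7 to 9 calls with NFAT2_CA, 4 to 6 with NFAT2_CARIT and 3 to 4 between the vectors. The counts of 4 and 3 came from the 10 CPM filter, under which Srm is not tested. With single libraries left out, the 9 genes gave 7 to 9, 5 and 4 calls. All 13096 genes then gave 7976 to 8618, 8558 to 9401 and 2785 to 4214. Of 83 called results of other named pathway genes, 76 stayed called under all 18. The 83 include results of Arg1, Pycr1, Gatm, Slc7a7, Mycn and Prodh, for which the filter on low values makes a call no support. Lost calls included Gatm and Amd2 with NFAT2_CA, each under 1 alternative. Between the vectors they included Mri1, Gatm, Prodh and Oat, lost under 8, 7, 8 and 6. With the replicate number as a block, limma called 3806 genes higher and 4756 lower with NFAT2_CA, 3832 and 5346 with NFAT2_CARIT, and 1455 and 2089 between the vectors, and no count of the 9 genes changed. Deviations of same-numbered libraries from their group means correlated at r -0.07 to 0.26, beside -0.28 to 0.23 for libraries of different number. The highest value was that of NFAT2_CA and NFAT2_CARIT replicate 3. In 4 of 18 comparisons a library was most like the same-numbered one of another group. No label marks pairs, so the numbers are not read as pairs. The depth leaves Nos2 and Arg1 in Control at a few reads each, which sets the width of their fold intervals.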
